A study of Mus musculus with 12 samples.

Results

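The genes described here are 10 transcripts of the mammalian circadian clock, Arntl, Clock, Per1, Per2, Cry1, Ciart, Nr1d1, Nr1d2, Dbp and Tef, out of 55487 genes in the input count file. They were listed by name, with earlier results of these data known. All 10 were found in the input counts by gene identifier, and 8 of them had a row in the table of normalized reads that also covers ribosome-protected fragments (10607 genes), where Dbp and Ciart had none. After the filters on low values, 9 clock genes were tested in input (all but Ciart) and 8 in ribosome-protected fragments. The question put to them was how far the 6 livers of the study differed in clock state, by genotype, by litter and by mouse.

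In each cell, the proteins of Arntl (BMAL1) and Clock pair on E-box sequences and switch on the Per and Cry genes, whose proteins return to the nucleus and block the pair. The same pair drives Nr1d1 and Nr1d2 (REV-ERBα and REV-ERBβ), nuclear receptors that repress Arntl, and Dbp and Tef, transcription factors of the PAR bZIP family that act on D-box sequences of output genes. Mouse liver has a strong rhythm of these transcripts, and those of Dbp, Tef, Per, Nr1d and Ciart peak from midday to early night, when Arntl is low.

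The mice were 3 wild-type (WT) animals and 3 whole-body Mettl5 knockout (KO) animals. METTL5 methylates an adenosine of the 18S rRNA of the small ribosomal subunit. The line came from ES cells of an F1 hybrid of C57bl/6 and 129S6 with a floxed exon 2 of Mettl5, was backcrossed to B6, and met Cre through the strain B6.C-Tg(CMV-cre)1Cgn/J, whose CMV promoter is active in the whole body, so that the frame shift is not limited to hepatocytes. The labels name each KO mouse as a littermate of the WT mouse with the same number, which gives 3 litters of 1 WT and 1 KO (WT1 and KO1, WT2 and KO2, WT3 and KO3). Each frozen liver gave an input library (RNA-seq of the lysate made with cycloheximide) and an RPF library (ribosome-protected fragments), 12 libraries in 4 groups of 3. The labels name no treatment beside genotype. The hour of collection and the age and sex of each mouse are not given in the sources used here, so hour of collection, age, cage and handling cannot be told apart from litter where littermates shared them.

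Input libraries held 8326325 to 11825643 counts, of which 45.8% to 63.8% lay in the annotated 18S rRNA gene, and 2077408 to 4745069 counts were left without it, the mitochondrial rRNA genes and Lars2. RPF libraries held 4623826 to 9184242 reads. KO1 was the deepest in input and had the lowest 18S share (45.8%). It also had the most genes detected (18806, against 16043 to 16759 in the other mice). Levels are given as CPM, counts scaled to library size after TMM normalization. The TMM factor of KO1 was 1.65, against 0.773 to 1.04 in the other mice. The part of these library differences in the KO1 values below was not tested. The Mettl5 transcript, the check of genotype, was lower in RPF of each KO mouse than of each WT mouse (log2 fold change −2.64, SE 0.36, limma adjusted p 0.00504). Its input CPM was also lower in each KO mouse, but that change did not pass (−1.59, SE 0.46, edgeR unadjusted p 0.00351, adjusted p 0.999). Nor did its TE change (−1.16, SE 0.51, limma unadjusted p 0.0335, adjusted p 0.998). The input and TE tests thus did not call the knocked-out gene itself. All 5 hepatocyte markers were present, with a sum of 18901 to 26508 CPM in WT and 19912 to 21672 in KO. Summed markers of cholangiocytes, Kupffer cells, endothelial cells and lymphocytes overlapped between genotypes (all 5 markers of each were detected), and 3 of 5 pancreatic acinar markers were at 0. The 5 stellate cell markers summed to 61.4 to 70.7 CPM in WT and 74.1 to 84.9 in KO, without overlap. In whole liver, fewer cells of a type and less RNA per cell cannot be told apart, and the part of stellate cells in the values below was not tested.

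The promoters are shown first, for the genes on which the results turn. Windows of 250 bases before to 50 after the start site were taken from RefSeq (GRCm38.p6) for 9 of the 10 genes, and Per2 was without an entry. Both strands were searched for CACGTG, the E-box of the Arntl and Clock proteins, and 4 of the 9 genes held it (Per1, Cry1, Ciart and Tef). Counted by window, since a gene can have several start sites, 5 of the 14 windows of the 9 genes held it, beside 7.15% of all 32851 promoter windows. The TAGGTCA core of the element bound by ROR and REV-ERB proteins was found in 1 of the 14 windows, that of an Arntl start site, beside 2.61% of all windows. The E-box variant CACGTT (4.68% of all windows) was found on either strand in Nr1d1 and Cry1, and the D-box TTATGCAA (0.743%) in Per1 at position −24. No window of a clock gene held TTATGTAA (0.938%), TGGGTCA (3.98%) or TGACGTCA (1.79%), and those of Clock, Nr1d2 and Dbp held none of the motifs searched. A match describes letters and not a bound site. The 250 bases before the start site are printed for 3 genes with CACGTG in capitals. Tef (chr15:81802423-81802672, plus strand, match at −127) had the smallest p for litter in input, Per1 (chr11:69098699-69098948, plus strand, match at −166) had the widest spread in RPF, and Ciart (chr3:95882229-95882478, minus strand, matches at −116, −58 and −44) had the most matches and the lowest level.
Tef: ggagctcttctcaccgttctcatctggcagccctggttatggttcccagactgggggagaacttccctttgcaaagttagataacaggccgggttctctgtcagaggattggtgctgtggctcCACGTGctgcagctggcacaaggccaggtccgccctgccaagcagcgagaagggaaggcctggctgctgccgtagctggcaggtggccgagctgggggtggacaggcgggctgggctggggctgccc
Per1: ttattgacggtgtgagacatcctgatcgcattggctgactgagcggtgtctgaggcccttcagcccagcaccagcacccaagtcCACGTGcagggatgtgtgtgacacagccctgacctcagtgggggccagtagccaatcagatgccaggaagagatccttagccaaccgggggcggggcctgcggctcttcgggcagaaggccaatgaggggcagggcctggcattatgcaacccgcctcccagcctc
Ciart: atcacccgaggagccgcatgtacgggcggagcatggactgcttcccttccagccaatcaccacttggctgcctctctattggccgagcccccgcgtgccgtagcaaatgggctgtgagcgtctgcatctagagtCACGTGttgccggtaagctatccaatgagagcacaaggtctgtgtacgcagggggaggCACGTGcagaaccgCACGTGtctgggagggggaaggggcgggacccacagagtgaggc
For Arntl, whose input level had a negative r with Tef and Dbp across mice, 30 bases around TAGGTCA (capitals) are shown, from chr7:113207530-113207559 on the plus strand. The match starts 30 bases after a RefSeq start site.
Arntl: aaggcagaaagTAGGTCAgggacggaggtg
Dbp, the gene with the widest spread in input, had no CACGTG in its promoter window but held 2 inside its gene, both intronic, in 5116 bases. Such sites were not particular to Dbp. Arntl held 13 inside its gene, Clock 9, Tef 6, Per2 and Cry1 5 each, Per1 and Nr1d1 4 each, Nr1d2 3 and Ciart 0. For its length Nr1d1 held more than Dbp. Both Dbp sites are shown with their flanks, CACGTG in capitals, from chr7:45707700-45707729 and chr7:45707813-45707842 on the plus strand.
Dbp, upstream site: acattccctcgcCACGTGagtccgccttcc
Dbp, downstream site: agctgtaggccaCACGTGatgcggccctga

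Whether loss of METTL5 changed the abundance of clock transcripts was tested in input. None of the 9 clock genes tested passed, and neither did any other gene (0% of 10057 called by the quasi-likelihood test of edgeR at a Benjamini-Hochberg adjusted p of 0.05). No clock gene had an unadjusted p under 0.05 in edgeR, where 348 genes (3.46%) had, and DESeq2 called 0 clock genes as well, also with 0 at an unadjusted p under 0.05. The median change of the 9 was −0.29 on the log2 scale (KO minus WT), with 2 values above 0 and 7 below, beside a median of 0.00 over all genes tested. The direction of several of these values rested on 1 mouse, as given below. The WT and KO ranges overlapped in CPM for each of the 10 genes. Values are described next by the role of each gene.

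Arntl, the non-redundant activator, was measured at 4.11, 1.99 and 3.74 CPM in WT mice 1, 2 and 3 and at 4.61, 3.21 and 6.49 CPM in KO mice 1, 2 and 3. KO3 was the highest and WT2 the lowest, and the KO mouse was above its WT littermate in 3 of 3 litters. The mean was 3.28 ± 1.13 CPM in WT and 4.77 ± 1.64 in KO (SD, n = 3), and the log2 fold change of 0.53 (SE 0.31) did not pass (edgeR adjusted p 0.999). Clock, its partner, was the steadiest member, at 26.0, 23.3 and 22.5 CPM in WT and 25.0, 20.3 and 19.1 CPM in KO. The highest Clock value was only 1.36 times the lowest, and its change of −0.15 (SE 0.15) did not pass (edgeR adjusted p 0.999).

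Among the repressors, Per1 was measured at 6.86, 11.1 and 9.74 CPM in WT and 9.41, 9.64 and 12.97 CPM in KO, with a log2 fold change of 0.19 (SE 0.21). Per2 was low, at 1.65, 3.75 and 1.38 CPM in WT and 0.716, 4.22 and 0.841 CPM in KO, from 7 to 42 counts a library. Both mice of litter 2 lay above the other 4 in Per2, which gave an SE of 0.83 around its change of −0.29. Without WT2 or without KO1 that change was 0.30 or 0.22. Cry1, a partner of the PER proteins, was measured at 3.29, 3.63 and 4.03 CPM in WT and 3.28, 2.31 and 4.44 CPM in KO, and the change was −0.15 (SE 0.28), or 0.041 without KO2. Ciart (CHRONO), a repressor that binds the Arntl protein, was at 0 counts in 5 of 6 livers and at 2 in KO2. A count of 0 allows up to 3 counts, or 0.153 to 0.411 CPM by library, so no fold change was computed for Ciart. These limits cover counting error only.

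Nr1d1 was measured at 13.8, 11.4 and 12.2 CPM in WT and 7.01, 15.0 and 7.93 CPM in KO. KO1 and KO3 lay below the other 4 mice and KO2 above them, and the change was −0.34 (SE 0.27, edgeR adjusted p 0.999). It was −0.75 without KO2 (unadjusted p 0.00219, edgeR adjusted p 0.350) and −0.10 without KO1. Nr1d1, Per2 and Arntl were the 3 clock genes with an unadjusted p under 0.05 in edgeR without KO2, and none of them passed. Nr1d2 was measured at 12.9, 19.7 and 12.6 CPM in WT and 13.9, 15.8 and 4.08 CPM in KO, with a change of −0.39 (SE 0.52). KO3 stood apart at the bottom for Nr1d2, and the other 5 values lay between 12.6 and 19.7. The change was −0.03 without KO3 and −0.67 without KO2.

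Dbp and Tef differed more between litters than between genotypes. Dbp was measured at 1.78, 6.44 and 0.492 CPM in WT and 0.665, 3.61 and 0 CPM in KO, from 13, 55 and 5 counts in WT and 13, 36 and 0 in KO. In both genotypes litter 2 was the highest, litter 1 lay between and litter 3 was the lowest, and the KO mouse was below its littermate in 3 of 3 litters. The log2 fold change was −1.05 with an SE of 1.44 (edgeR adjusted p 0.999), and 0.37 without WT2. Tef followed the same order, at 13.8, 22.7 and 8.26 CPM in WT and 10.3, 20.0 and 5.16 CPM in KO. Its change of −0.33 had an SE of 0.64, and was 0.11 without WT2. The plot of input CPM by mouse shows the near-parallel lines of Dbp and Tef.

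**Figure D1:**
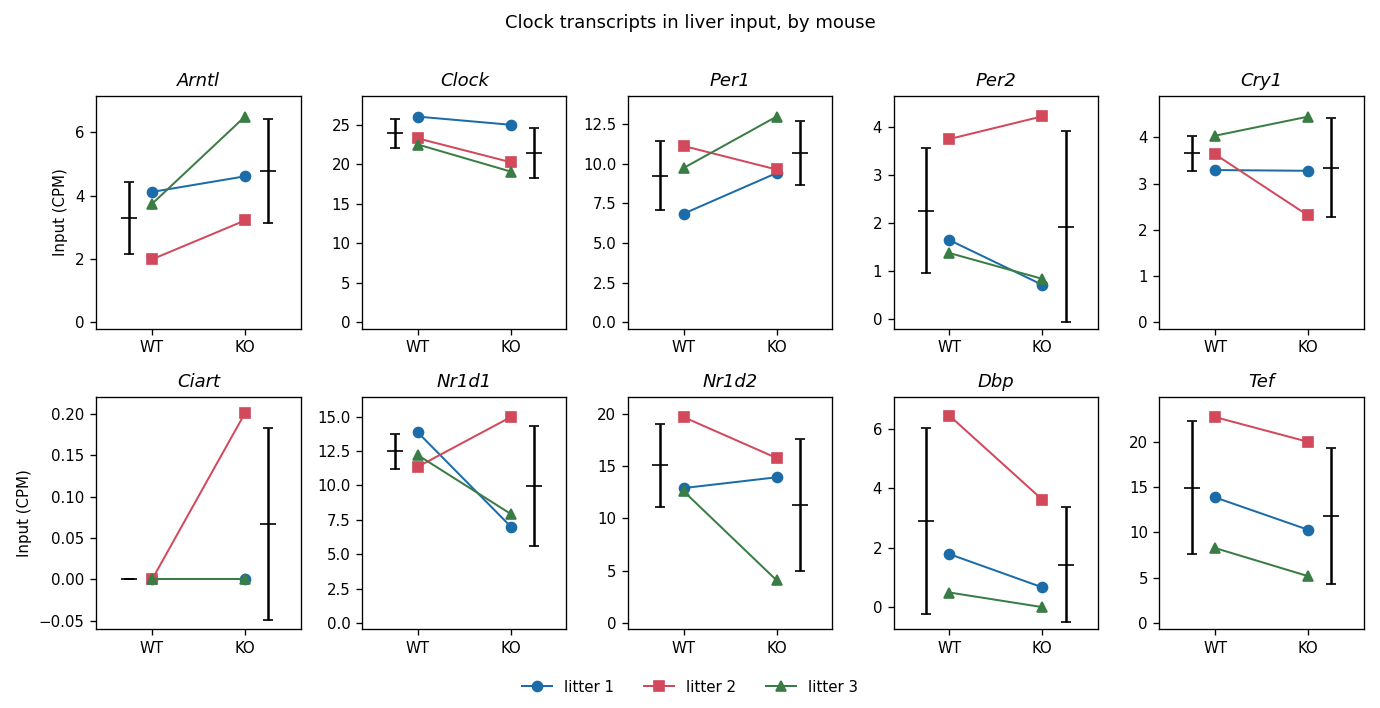
Input level of each clock gene in CPM (linear axes, a scale for each panel) for WT and KO mice, with littermates joined by a line, and the mean with its SD (n = 3) as black bars beside each genotype. Both mice of litter 2 are the highest for Dbp (6.44 and 3.61 CPM) and Tef (22.7 and 20.0 CPM), whereas Clock stays between 19.1 and 26.0 CPM.

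A fit with litter as a block took the difference between litters out of the genotype comparison and left the calls as they were. In it Dbp changed by −1.20 (SE 0.43) with an unadjusted p of 0.0123 and Tef by −0.40 (SE 0.17) with p 0.0303, and neither passed (edgeR adjusted p 0.997). Arntl changed by 0.53 (SE 0.26, edgeR unadjusted p 0.0556). The block was an alternative, since the methods of the study state no litter term.

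Compared per kilobase of exon, the scale on which genes can be ranked, Nr1d1 had the highest input level in WT at 4.05 ± 0.412 CPM per kilobase (SD, n = 3). Nr1d2 followed at 2.78 ± 0.740, and its range did not overlap that of Nr1d1. Tef (1.90 ± 0.926) overlapped Nr1d2, and Tef, Clock (1.75 ± 0.135) and Per1 (1.64 ± 0.387) did not differ beyond their spread. All Cry1 values (1.09 ± 0.111) lay just under the lowest Per1 value, but their range overlapped that of Tef (1.05 in WT3). Dbp (0.970 ± 1.05), Arntl (0.436 ± 0.151) and Per2 (0.385 ± 0.222) overlapped each other, and Ciart was at 0. Dbp had 0.164 in WT3 and 2.15 in WT2, so it also overlapped Cry1, Per1, Clock and Tef and has no firm place in this order.

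The change in RPF was asked next, since a transcript may keep its level and be occupied by ribosomes differently. None of the 8 clock genes tested passed in RPF (0 called, 0 at an unadjusted p under 0.05), where 44 of 8994 genes did (0.489% called in limma with Benjamini-Hochberg adjustment) and 1205 (13.4%) had an unadjusted p under 0.05. edgeR on the recovered whole reads also called 0 of the 8, with 0 at an unadjusted p under 0.05, and gave smaller changes for Per1 (0.74), Per2 (−0.36), Nr1d1 (−0.20) and Tef (−0.04) than the limma values below, and a larger one for Cry1 (−0.20). With litter as a block, 0 of the 8 passed and Arntl had an unadjusted p of 0.0296 (0.56, SE 0.24, limma adjusted p 0.229), while the genes called in all rose from 44 to 236. The median change of the 8 was −0.17 on the log2(value + 1) scale, with 3 above 0 and 5 below, beside −0.03 over all genes tested. Every adjusted p lay between 0.581 and 0.906 (limma). Values below are normalized reads, which are reads divided by 1 factor per library.

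Arntl had 69.7, 24.7 and 70.1 normalized RPF reads in WT and 68.1, 48.6 and 121 in KO, with a change of 0.56 (SE 0.46). As in input, WT2 and KO2 were the lowest and KO3 the highest. Clock had 77.5, 72.5 and 85.1 in WT and 69.5, 108 and 107 in KO, a change of 0.24 (SE 0.18), in the opposite direction to its input value.

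Per1 had 5.23, 79.3 and 88.7 normalized RPF reads in WT and 48.0, 183 and 58.3 in KO. WT1 stood apart with 6 reads, although its input library held 50 Per1 counts, and KO2 had 297 reads. The change of 1.19 (SE 0.98) turned to −0.07 without WT1. Per2 had 17.4, 25.6 and 18.6 in WT and 6.95, 29.5 and 8.60 in KO (change −0.68, SE 0.65), and KO1 and KO3 were below the other 4 mice in it. Cry1 had 76.7, 30.7 and 59.3 in WT and 48.7, 43.6 and 51.6 in KO (change −0.12, SE 0.30), and 0.16 without WT1.

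Nr1d1 had 193, 223 and 171 normalized RPF reads in WT and 89.7, 259 and 150 in KO (change −0.36, SE 0.36). The value was 0.021 without KO1, the mouse with the lowest Nr1d1. Nr1d2 had 66.2, 84.5 and 72.7 in WT and 54.9, 87.3 and 48.7 in KO (change −0.26, SE 0.44). Tef had 27.0, 58.0 and 36.1 in WT and 29.9, 63.3 and 18.2 in KO (change −0.23, SE 0.61), and again WT2 and KO2 were the highest and KO3 the lowest. Its change was 0.061 without WT2 and 0.18 without KO3.

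**Figure D2:**
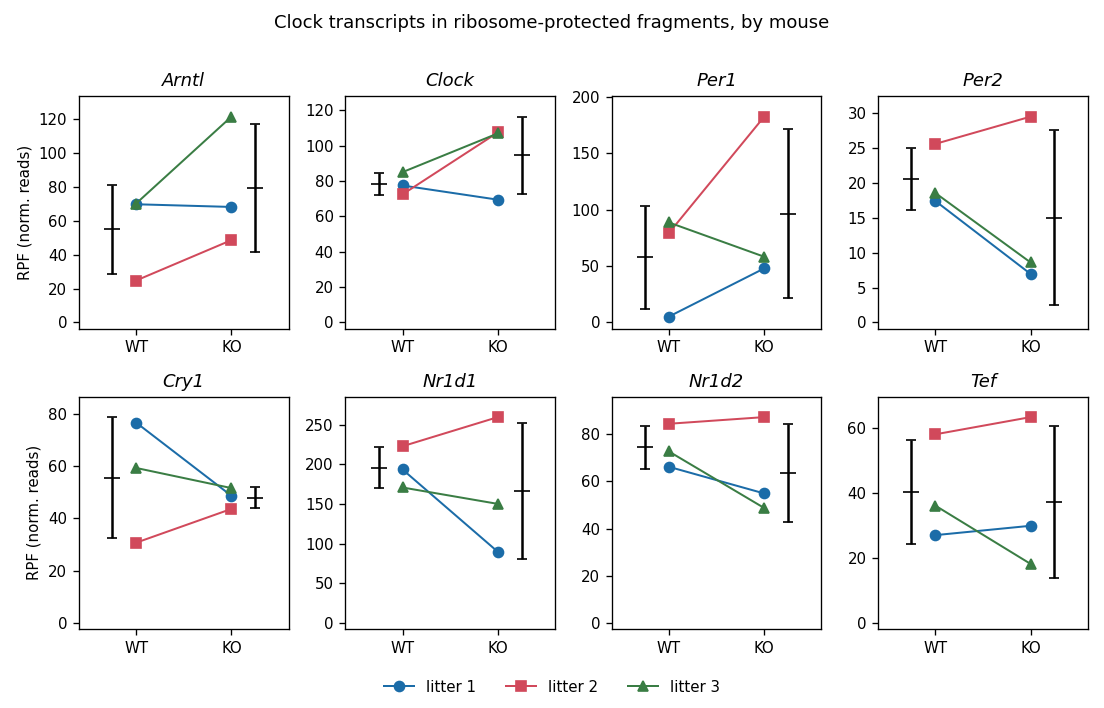
Normalized RPF reads of the 8 clock genes with a row in the table (linear axes, a scale for each panel), drawn as for input, with littermates joined and the mean and SD (n = 3) as black bars. Tef reaches 58.0 and 63.3 in the mice of litter 2 and 18.2 in KO3, and Per1 ranges from 5.23 in WT1 to 183 in KO2.

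Translation efficiency (TE), the log2 ratio of RPF to input, was tested as the difference of the changes in both assays. None of the 8 clock genes passed (0% of 8994 genes called in limma, with 423 or 4.70% at an unadjusted p under 0.05), 0 of the 8 had an unadjusted p under 0.05, and edgeR on whole reads called 0 with 0 at an unadjusted p under 0.05. The changes ranged from −0.12 for Per2 to 1.00 for Per1 (SE 1.39), with 7 above 0 and 1 below, a median of 0.15 and a limma adjusted p of 0.998 for each. The smallest unadjusted p, 0.0999, was that of Clock, whose log2 TE was −2.15, −2.09 and −1.81 in WT and −2.19, −1.31 and −1.24 in KO (change 0.43, SE 0.25). KO2 and KO3 lay above all WT mice in Clock TE and KO1 lay below them. Without KO1 the Clock change was 0.74 (SE 0.23, unadjusted p 0.00480, limma adjusted p 0.444), and its lowest value, without KO3, was 0.26. The TE direction of Arntl, Per1, Per2, Cry1, Nr1d1, Nr1d2 and Tef changed when 1 mouse was left out. The Per1 value was −0.063 without WT1, and 0.55 with edgeR on whole reads.

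**Figure D3:**
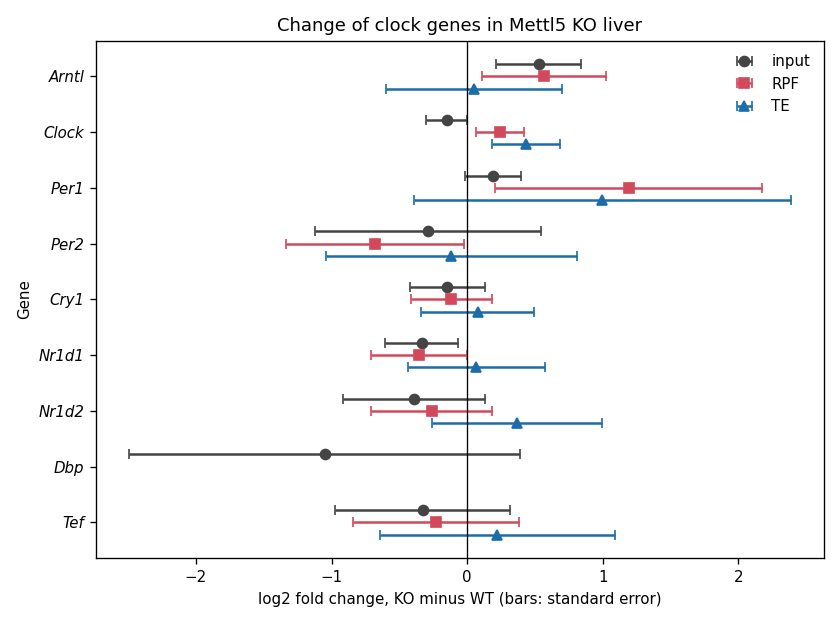
log2 fold changes (KO minus WT) of the clock genes in input (edgeR), RPF and TE (limma, log2(value + 1) scale), with standard errors as bars and a vertical line at 0. Dbp was tested in input alone. The points lie between −1.05 (Dbp, input) and 1.19 (Per1, RPF), and none passed its test.

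In WT livers several clock transcripts had a low TE among the 8994 genes. Tef stood at the 3.14 percentile (mean log2 TE −2.23), Clock at the 4.35 (−2.02) and Nr1d2 at the 10.1 percentile (−1.40), and leaving out any WT mouse kept them between the 1.97 and 12.7 percentiles, a check chosen after seeing the data. Per1 was at the 5.98 percentile (−1.78), but its log2 TE was −3.90 in WT1, which held 6 RPF reads, against −0.90 and −0.54 in WT2 and WT3. Without WT1, Per1 stood at −0.72, the 23.6 percentile. Arntl (0.24), Nr1d1 (0.23) and Cry1 (0.09) lay near the median of all genes, 0.09, although Cry1 ranged from −0.25 to 0.46 when a WT mouse was left out. Per2 was at −0.42, the 32.4 percentile. Neither count is divided by length, and input was counted over all exons, so untranslated sequence adds to input. Tef has 7867 exon bases and 903 coding bases, Clock 13727 and 2565, and Nr1d2 5409 and 1728, but Arntl, near the median, also has 7523 and 1899. Per1 has 5631 and 3873. The part of untranslated length in TE was not tested.

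Per kilobase of coding sequence, Nr1d1 had the highest RPF level in WT (106 ± 14.1 normalized reads per kilobase, SD, n = 3), above each value of the other genes. Tef (44.7 ± 17.7) and Nr1d2 (43.1 ± 5.35) followed and overlapped each other. Clock (30.6 ± 2.47) lay below each Nr1d2 value and overlapped Tef (29.9 in WT1), Cry1 (30.6 ± 12.8) and Arntl (28.9 ± 13.7). Cry1 and Arntl also overlapped Tef, and Cry1 overlapped Nr1d2. Per1 had 14.9 ± 11.8 normalized reads per kilobase, overlapping Arntl and Cry1, and Per2 had 5.44 ± 1.17, within the range of Per1.

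How far mice of 1 genotype differed was described by the SD of log2 values within genotype. In input the SD was 2.25 for Dbp, the 99.9 percentile of 10057 genes, 1.08 for Per2 (98.6), 0.85 for Tef (96.6) and 0.79 for Nr1d2 (95.6), beside a median of 0.27 over all genes. Arntl was at the 84.5 percentile, Nr1d1 at the 75.5, Cry1 at the 63.5, Per1 at the 58.0 and Clock at the 19.3. In RPF the order changed, with Per1 at the 99.9 percentile (SD 1.70), Per2 at 98.1, Arntl at 98.0, Tef at 97.5, Nr1d1 at 92.2, Cry1 at 87.5, Nr1d2 at 68.2 and Clock at 52.7. Dbp and Per2 had 0 to 55 and 7 to 42 input counts, and the part of counting noise in their SD was not tested. The RPF spread of Per1 included WT1, with 6 reads. WT1 lay 3.11 log2 units below the mean of the 6 mice (−3.11), whereas WT2 and WT3 were at 0.58 and 0.74. The part of that library in the Per1 SD was not tested.

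The spread within genotype followed litter for part of these genes. A term for litter beside genotype was tested after the values had been seen, so it describes these livers. In input 2 of 9 clock genes passed, Tef (edgeR adjusted p 0.00403) and Dbp (0.00546), where 28 of 10057 genes did (0.278% called), and 4 of 9 had an unadjusted p under 0.05 (Tef, Dbp, Per2 and Arntl), where 6.67% of all genes had. Litter 2 exceeded litter 3 by 4.31 log2 units in Dbp (SE 0.61) and by 1.69 in Tef (SE 0.21). Litter 2 exceeded litter 1 by 2.13 in Dbp (SE 0.45) and by 0.84 in Tef (SE 0.20). DESeq2 also called Dbp and Tef. Without WT3 or without KO3, 0 of the 9 passed in edgeR, with 5 and 3 at an unadjusted p under 0.05, and 3 genes passed in all in either fit. Tef was the 1 clock gene to pass without KO2 (30 genes in all) and without the genotype term (12), and with no filter on low values 4 passed (Dbp, Nr1d2, Per2 and Tef, of 250 in all). The Dbp difference to litter 3 rests on a KO3 count of 0 and depends on the prior count there.

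In RPF 1 of 8 clock genes passed the litter term, Arntl (limma adjusted p 0.0276), where 137 of 8994 genes did (1.52% called). Litter 2 was below litter 3 by 1.39 log2 units in Arntl (−1.39, SE 0.27) and below litter 1 by 0.97 (−0.97, SE 0.27). Tef had the next smallest limma adjusted p, 0.0975, with litter 2 above litter 1 by 1.07 (SE 0.32) and above litter 3 by 1.21 (SE 0.32). In all 4 of 8 clock genes had an unadjusted p under 0.05 (Arntl, Tef, Per2 and Nr1d1), where 13.7% of all genes had. These calls moved with single mice, and so did those over all genes. None of the 8 passed without WT3 (limma, 4 at an unadjusted p under 0.05), where 54 genes did in all, or without the genotype term (3 at an unadjusted p under 0.05), where 2 did. Arntl, Nr1d1, Per1 and Tef passed without WT1 and without KO1, where 726 and 547 genes did in all. Nr1d1 was the 1 clock gene to pass without WT2 (150 genes in all), and Per1 without KO3 (52).

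**Figure D4:**
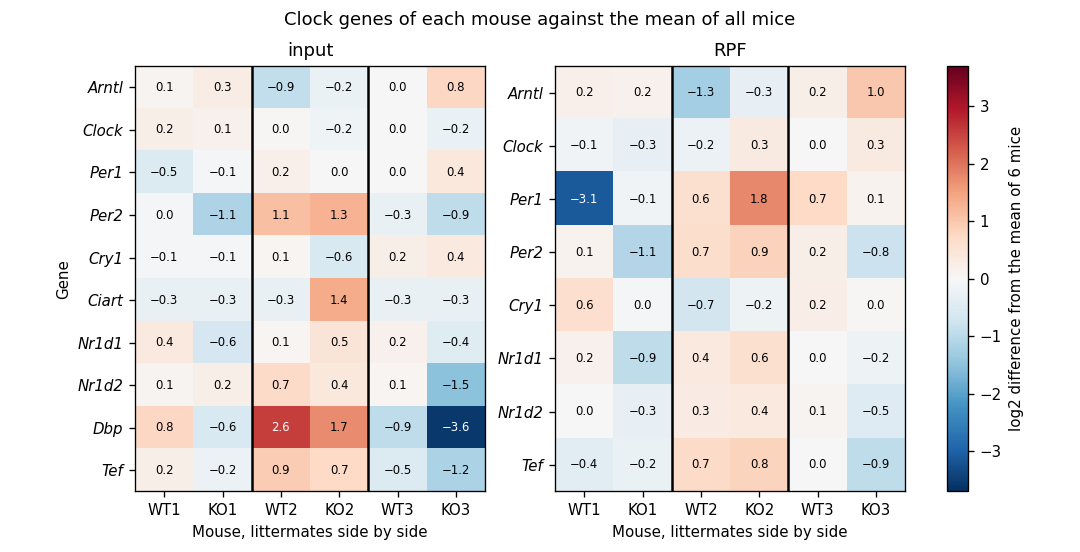
Difference of each mouse from the mean of the 6 mice in log2 units (color and printed value), for 10 clock genes in input (log2 CPM) and 8 in RPF (log2(normalized reads + 1)), with littermates side by side and black lines between litters. WT2 and KO2 are above the mean for Per2, Nr1d1, Nr1d2, Dbp and Tef and below it for Arntl, in input and, except Dbp, which has no RPF value, also in RPF.

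Each mouse was then placed on a single scale, the mean difference of Per1, Per2, Ciart, Nr1d1, Nr1d2, Dbp and Tef from the mean of all mice minus that of Arntl, Clock and Cry1. This contrast is a description with no test. In input it was 1.17 log2 units in KO2, 1.01 in WT2, 0.0015 in WT1, −0.32 in WT3, −0.49 in KO1 and −1.37 in KO3. In RPF, where 5 genes stood against 3, it was 1.25 in WT2, 0.94 in KO2, 0.07 in WT3, −0.48 in KO1, −0.87 in WT1 and −0.90 in KO3. Both mice of litter 2 were thus the highest in both assays and KO3 was the lowest in both. In RPF the place of KO3 just below WT1 was narrow and rested on single genes. Leaving out each clock gene in turn moved the RPF value of KO3 between −1.11 and −0.64, and without Arntl WT1 was the lowest.

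By genotype the contrast was 0.23 ± 0.70 in WT and −0.23 ± 1.29 in KO in input (SD, n = 3) and 0.15 ± 1.06 and −0.15 ± 0.97 in RPF, so the genotypes differed by less than the spread between mice. Within litters, KO minus WT was −0.49 in litter 1, 0.15 in litter 2 and −1.05 in litter 3 in input, and 0.39, −0.31 and −0.97 in the same order in RPF. With all genes in, only litter 3 kept 1 direction in both assays, but the signs in litters 1 and 2 rested on single genes. The input value of litter 2 fell below 0 without Ciart, which had 2 counts in KO2 (1.37 log2 units) and 0 elsewhere (−0.27). The RPF value of litter 1 fell below 0 without Per1, which had 6 reads in WT1 (−3.11 log2 units). Leaving out each clock gene in turn moved the input value of KO3 between −1.64 and −0.95 and that of KO2 between 1.02 and 1.31. The RPF value of WT1 was the one that rested most on a single gene, with −0.25 as its highest value when a gene was left out.

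**Figure D5:**
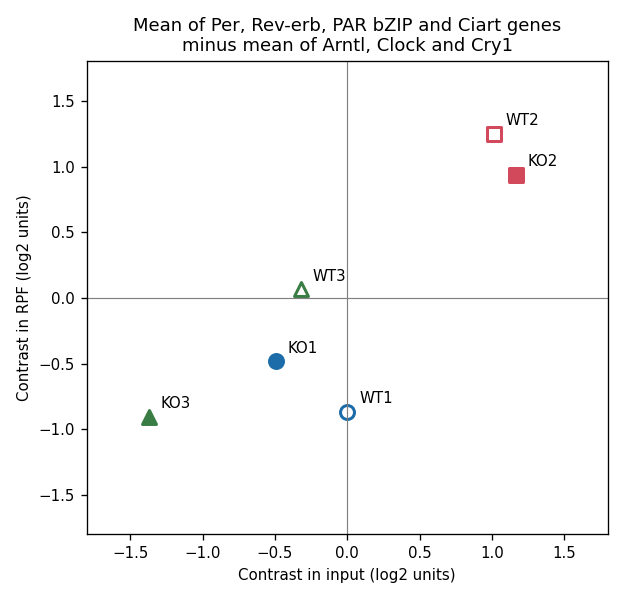
The contrast of each mouse in input (horizontal axis) against RPF (vertical axis), both in log2 units, with open symbols for WT, filled symbols for KO and a shape and color for each litter. WT2 (1.01 and 1.25) and KO2 (1.17 and 0.94) lie at the upper right, and KO3 (−1.37 and −0.90) at the lower left.

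Whether a clock gene kept its order of mice from input to RPF was asked by correlation over the 6 mice, with 8 genes in the family. Littermates are not fully independent and both assays come from the same lysate, which these p-values leave out. Pearson's r was 0.98 for Arntl (adjusted p 0.0370), 0.95 for Per2 (0.0370), 0.88 for Nr1d1 (0.0370), 0.79 for Nr1d2 (0.0422) and 0.87 for Tef (0.0426) in the two-sided exact permutation test, whose smallest possible unadjusted p is 0.00139. Their raw exact permutation p-values were 0.00833, 0.0139, 0.00972, 0.0222 and 0.0319. Per1 (r = 0.68, exact permutation p 0.160, adjusted 0.183) and Cry1 (r = 0.13, p 0.800, adjusted 0.800) did not pass. Clock went the other way, with r = −0.90 (exact permutation p 0.0264, adjusted 0.0422), over input values that spanned only 1.36-fold.

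By rank none of the 8 passed. Spearman's rho was 0.94 for Per2 (exact permutation p 0.0167, adjusted 0.133), 0.83 for Nr1d1 (p 0.0583, adjusted 0.181), 0.77 for Arntl and −0.77 for Clock (p 0.103, adjusted 0.181), 0.71 for Nr1d2 and Tef (p 0.136, adjusted 0.181), 0.43 for Per1 (p 0.419, adjusted 0.479) and 0.31 for Cry1 (p 0.564, adjusted 0.564). Without the 2 mice farthest from the median, r was 0.97 for Per2, −0.97 for Clock, 0.79 for Arntl, 0.62 for Tef, 0.47 for Nr1d2, 0.44 for Nr1d1, −0.01 for Per1 and −0.17 for Cry1. The relations of Nr1d1, Nr1d2, Tef and Per1 therefore rested in good part on those mice, KO3 being 1 of the 2 for each.

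Across the same mice the input levels of other clock genes were set against Arntl, with 9 relations in the family. Dbp (r = −0.90, rho = −0.83), Tef (−0.88, −0.83), Nr1d2 (−0.84, −0.77) and Per2 (−0.83, −0.83) were low where Arntl was high. None passed adjustment in the two-sided exact permutation test. The raw p of r was 0.0208 for Dbp and Tef, 0.0514 for Nr1d2 and 0.0306 for Per2, the adjusted p 0.0917, 0.0917, 0.116 and 0.0917, and the adjusted p of rho 0.175 or, for Nr1d2, 0.231. Nr1d1 (−0.53), Clock (−0.26), Ciart (−0.21), Per1 (0.09) and Cry1 (0.35) had adjusted exact permutation p-values of 0.535 to 0.882. Without WT2 and KO3, the mice at both ends of Arntl, r was −0.93 for Per2, −0.80 for Nr1d1, −0.61 for Dbp, −0.57 for Tef and −0.52 for Nr1d2, and turned for Clock (0.90) and Per1 (−0.31).

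The genes most like Dbp over the 6 input libraries, of 10057 tested, were Tef (r = 0.99), Slc25a38 (0.985), Prkaa1 (0.983), Heatr5b (0.982) and Slc23a1 (0.982), and 101 genes (1.00%) had an r above 0.9. Tef is thus the gene nearest to Dbp among the genes tested, where the Dbp value of KO3 is a count of 0 set by the prior count. The genes most like Arntl were Esr1 (0.994), Mmrn2 (0.986), Lrwd1 (0.984), Enho (0.983) and Ppm1d (0.981), among 84 genes (0.835%) above 0.9. With 6 libraries from 3 litters, these values are descriptions of the nearest patterns.

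Further genes of the clock, of its liver output and of the response to glucocorticoids and heat were taken from lists made by name. None passed for genotype in any comparison. The medians of all genes tested were 0.00 in input, −0.03 in RPF and −0.01 in TE. Of 17 further clock genes, 13 were tested, with 0 called in input, RPF or TE and medians of 0.08, −0.10 and −0.18. Rora, an activator of Arntl, changed by 0.24 in input (SE 0.15) and Nfil3, a repressor at D-boxes, by 0.29 (SE 0.29), and neither passed (edgeR adjusted p 0.999). At an unadjusted p under 0.05 there were 0 of the 13 in input, 1 in RPF (Csnk1e, log2 fold change 1.16, SE 0.53, limma adjusted p 0.353) and 0 in TE. Csnk1e was named after its value was seen.

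Of 15 output genes, 14 were tested and 0 were called, with 0, 2 and 0 at an unadjusted p under 0.05 (edgeR for input, limma for RPF and TE) and medians of −0.13, −0.20 and −0.25 in input, RPF and TE. Tspan4 changed by −0.34 in input (SE 0.22) and Gys2, the liver glycogen synthase, by −0.17 (SE 0.15), and neither passed (edgeR adjusted p 0.999). The lowest limma adjusted p of the list was that of Nampt in RPF (−0.78, SE 0.22, adjusted p 0.108), the enzyme of NAD salvage, also named after its value was seen. Of the 10 glucocorticoid and heat genes, 0 were called and 0 had an unadjusted p under 0.05 in the same 3 comparisons (edgeR and limma), and their medians were −0.09, −0.07 and 0.05. Fkbp5, a glucocorticoid target, changed by −0.35 (SE 0.25) and Dnajb1, a chaperone partner, by −0.30 (SE 0.26) in input (edgeR adjusted p 0.999).

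For the litter term these lists gave further calls, and the genes called are named for that reason. Upp2, a uridine phosphorylase of liver, was measured at 25.2, 48.1 and 35.4 CPM in WT and 28.2, 70.7 and 29.3 CPM in KO, so that litter 2 was the highest in both genotypes (edgeR adjusted p 0.0323 in input, limma 0.0482 in RPF). Elovl3, a fatty acid elongase, was measured at 99.8, 106 and 166 CPM in WT and 95.6, 80.0 and 211 CPM in KO, with litter 3 the highest (edgeR adjusted p 0.0354, limma 0.00461). They were 2 of 14 output genes called in each assay, beside 0.278% of all genes in input and 1.52% in RPF. Of 13 further clock genes, 0 were called in either assay. An unadjusted p under 0.05 was found for 3 of the 13 in input (edgeR, beside 6.67% of all genes) and for 2 of the 13 in RPF (limma, beside 13.7%).

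Hsph1, a heat shock chaperone, was measured at 20.3, 37.5 and 26.9 CPM in WT and 17.8, 43.4 and 18.0 CPM in KO, highest in litter 2 as Dbp, Tef and Per2 were (edgeR adjusted p 0.0323, limma 0.00331 in RPF). It was 1 of 10 glucocorticoid and heat genes called in input, where 0.278% of all genes were. In RPF 4 of the 10 were called, Hsph1, Tsc22d3, Dusp1 and Hsp90aa1, where 1.52% of all genes were. Dusp1 was highest in litter 1, with 97.6 normalized RPF reads in WT1 and 75.1 in KO1 against 31.6 to 41.3 in the other 4 mice (limma adjusted p 0.0290). Tsc22d3 was lowest in litter 1, with 109 in WT1 and 154 in KO1 against 171 to 325 (limma adjusted p 0.0211). The part of handling or temperature in the litter differences of clock genes was not tested.

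The genes lie on several chromosomes of mm10, with coordinates from the count file. Tef is on chromosome 15 from 81802421 to 81826863 (plus strand), Dbp on 7 from 45705088 to 45710203 (plus), Arntl on 7 from 113207465 to 113314126 (plus) and Clock on 5 from 76209868 to 76304792 (minus). Per1 is on 11 from 69095217 to 69109960 (plus), Per2 on 1 from 91415982 to 91459324 (minus), Cry1 on 10 from 85131700 to 85185064 (minus), Ciart on 3 from 95878503 to 95882251 (minus) and Nr1d2 on 14 from 18204054 to 18239127 (minus). Nr1d1 is on 11 from 98767932 to 98775333 (minus), where its end overlaps Thra on the opposite strand over 1075 exon or intron bases, and Dbp overlaps Sphk2 on the opposite strand over 737. On the opposite strand Ciart lies in full within C920021L13Rik (3749 bases), and Arntl and Tef overlap Gm45355 and Gm17597 over 2394 and 193 bases. Input was counted by strand, so reads of these pairs were told apart there. Clock overlaps Gm43658 (4176 bases) and Ube2n-ps1 (459 bases) on its own strand, where strand cannot tell reads apart.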

How the data were processed

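Livers of 6 mice gave 12 libraries, 1 input and 1 RPF library a mouse, sequenced as 50 bp paired-end reads. The authors' input counts are deposited as whole numbers of read pairs per gene, from reads trimmed with BBDuk, aligned to mm10 with STAR 2.7.3a, kept where uniquely mapped and counted over exons by strand with featureCounts (1.6.0 in the submitters' processing notes, 2.0.3 in the file header). RPF reads were mapped with RiboToolkit after removal of rRNA. The deposited table of TE holds a signal per gene and library, reads divided by 1 factor per library without gene length, and 100% of its values were whole multiples of 1 read (tolerance 0.01 read), so whole reads were recovered. Its columns of fold change, p-value and adjusted p-value hold the authors' own comparison and were not used. No column was left without a sample. Gene symbols matched 55142 of 55487 identifiers.

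The 10 genes and the lists were chosen with earlier results of these data known. Input was tested with edgeR 4.0.16 (TMM, filterByExpr, robust quasi-likelihood) in R 4.3.3, and RPF and TE with limma 3.58.1 on log2(value + 1), from 4 group means over 12 libraries, keeping genes that averaged 10 or more in both assays. The added 1 shrinks a log2 ratio of few reads. The RPF changes were still larger on this scale than with edgeR on whole reads for Per1, Per2, Nr1d1 and Tef, and smaller for Cry1, as given above. The litter term in RPF was fitted on the RPF columns alone. Tests were two-sided, with Benjamini-Hochberg adjustment over all genes tested and a threshold of 0.05. Log2 CPM used a prior count of 1. Beside the 10 genes and Mettl5, the text names genes of 3 lists with an adjusted p under 0.05 for genotype, the 3 further clock genes and 2 of each other list with the smallest input p, and the 5 genes most like Dbp and Arntl. Of these, 1 gene, and an alternative contrast that used another, are not reported here. Genes called for litter were named after their values were seen.

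The labels mark same-numbered mice as littermates, so the numbers pair the samples. Across genes, the deviations of littermates from their groups had correlations of 0.0202, 0.0916 and 0.0592 in input and 0.242, 0.144 and 0.195 in RPF. Replicates differed by more than sampling noise in each pair. DESeq2 1.42.0, RLE size factors, other filters and pseudocounts, centred columns, edgeR on whole reads, the replicate block and leaving out each mouse served as alternatives. Simulated data with known changes tested the edgeR fits of input (genotype and litter) and the limma genotype fits of RPF and TE. The limma litter fit of RPF and the alternatives were not tested on simulated data.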

Additional observations from a re-analysis of the deposited data

How the results depend on the processing

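The count of clock genes called for genotype was 0 in input, RPF and TE under each alternative run, with the replicate block (the litter pairing) and without each mouse. The replicate block changed no call of a clock gene, whereas it moved the count over all genes from 0 to 2 in input, from 44 to 236 in RPF and from 0 to 1 in TE. When a mouse was left out, the RPF count over all genes ranged from 0 without KO2 to 228 without KO1. The input count reached 30 with no filter and 21 without KO2. With means of 50 or more required, 5 clock genes were left. Of 634 recomputed values, 570 were classed as the same, by a rule for each kind of result. Fold changes and correlations had to keep their sign and side of the threshold, and litter tests their side. Counts had to stay near the main count. A contrast had to move by less than the SD within genotype (1.03 in input, 1.01 in RPF), whatever its sign. Among fold changes and correlations 28 changed sign. The cause of these changes of sign was not tested. Leaving out each mouse in turn, the input change ranged from −1.55 to 0.30 for Per2, −0.36 to 0.041 for Cry1, −2.69 to 0.37 for Dbp, −0.89 to 0.11 for Tef, −0.75 to −0.10 for Nr1d1, −0.67 to −0.027 for Nr1d2, 0.27 to 0.73 for Arntl, 0.025 to 0.34 for Per1 and −0.27 to −0.077 for Clock, with changes of sign without WT2 (Per2, Dbp and Tef), KO1 (Per2, 0.22) and KO2 (Cry1). The RPF change ranged from −0.066 to 1.86 for Per1, −0.49 to 0.16 for Cry1, −0.74 to 0.021 for Nr1d1, −0.70 to 0.18 for Tef, 0.078 to 0.86 for Arntl, 0.14 to 0.45 for Clock, −1.28 to −0.31 for Per2 and −0.51 to −0.096 for Nr1d2, with changes of sign without WT1 (Per1 and Cry1), KO1 (Nr1d1), WT2 (Tef, 0.061) and KO3 (Tef). The TE change ranged from −0.12 to 0.17 for Arntl, −0.063 to 1.61 for Per1, −0.38 to 0.098 for Per2, −0.29 to 0.42 for Cry1, −0.036 to 0.23 for Nr1d1, −0.070 to 0.70 for Nr1d2, −0.030 to 0.55 for Tef and 0.26 to 0.74 for Clock. edgeR on whole reads gave a TE change of −0.016 for Arntl and −0.048 for Cry1. The count called for litter, an analysis chosen after seeing the data, ranged from 0 to 3 in input and from 0 to 4 in RPF when a mouse was left out, was 4 in input with no filter, and was 1 in input and 0 in RPF with no genotype term. Without the 2 mice farthest from the median, with 4 mice left and an exact permutation p that cannot go below 0.0417, no relation of input to RPF passed adjustment (r = 0.79 for Arntl, −0.97 for Clock, 0.97 for Per2, 0.44 for Nr1d1, 0.47 for Nr1d2, 0.62 for Tef, −0.012 for Per1 and −0.17 for Cry1), and the relation to Arntl turned for Clock (0.90) and Per1 (−0.31). Per2, Dbp and Ciart are limited by depth, with at most 42, 55 and 2 input counts.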
